A study of Homo sapiens with 4 samples.

Results

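The genes described here are the 220 entries of a K1 cell expression table whose symbol is LINC followed by a number and that reached a level of 1 FPKM in at least 2 of 4 libraries. FPKM, fragments scaled by transcript length and library total, is a level per unit of transcript length, so levels of different genes can be set side by side. The members were chosen by name and by this measured level, out of 554 LINC entries and 20510 entries in all, and the remaining 334 LINC entries lay below it. The level rule used all 4 libraries without regard to their group, so a member's own level is a description and carries no test. Of the members, 179 reached 1 FPKM in all 4 libraries, 23 in 3 and 18 in 2, with 3 passing through the shCtrl libraries alone and 3 through the shTBX3 libraries alone. At the border, LINC00886 (0.58, 1.00, 0.74 and 1.03 FPKM, in the order shCtrl replicates 1 and 2, then shTBX3 replicates 1 and 2) and LINC01270 (0.90, 1.23, 1.00 and 0.62) lay just inside, and LINC01192 (0.99, 0.89, 0.90 and 1.01) and LINC00566 (0.59, 1.23, 0.98 and 0.72) just outside.

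K1 is a human cell line labelled as papillary thyroid carcinoma. The cells carried either a control short hairpin RNA, shCtrl, or one directed at TBX3, shTBX3, with 2 libraries of each, and every other condition in the labels was shared, including RPMI 1640 medium with fetal bovine serum and sequencing on the BGISEQ-500. The hairpin sequences, the way they were delivered and whether each group was 1 clone are not given in the sources used. Nothing says that the duplicates were separate cultures, so each p-value reflects only how far these libraries lie apart, which may be technical. TBX3, a T-box factor that acts mainly by repressing its targets, stood at 48.94 and 54.77 FPKM in shCtrl, against 27.81 and 36.99 in shTBX3, a log2 difference of −0.67 ± 0.17 (SE) that limma did not call (adjusted p = 0.428). Of 7 thyroid follicular markers, 5 stayed under 1 FPKM in every library, and PAX8 (1.20 to 1.88) and SLC5A5 (2.42 to 3.28) reached it. All 5 intestinal epithelial markers did, with a summed level of 194.3 to 246.8 against 4.29 to 5.13 for the thyroid list. The 4 leukocyte markers in the table summed to 22.82 to 24.49, mostly LYZ. Of 5 fibroblast markers only 1 was in the table, and that gene and the 3 endothelial markers stayed under 1 FPKM. The steps of short genes correspond to 8540000 to 8750000 fragments per library. By this estimate 1 FPKM is worth 8.54 to 8.75 fragments per kilobase of transcript, after a length offset of −37 bases.

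LINC followed by a number is a placeholder name given to long non-coding RNA genes that lie between protein-coding genes and have no better-founded name. Such RNAs are made by RNA polymerase II, are mostly spliced and polyadenylated, and are known for low levels and for being more restricted to a cell type than messenger RNAs. Some act on chromatin or on neighbouring genes, some act in the cytoplasm, and a number of loci named this way were later found to encode small proteins. Since a transcription factor can act on such genes as on any other, the comparison of the groups asked whether their levels differed when the TBX3 hairpin was present.

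The table's names are older than the annotations used to place them. Of the 220 members, 206 were matched to a gene of GENCODE release 44 on GRCh37, the build of the deposited table per the submitters' processing notes. By that annotation 150 lay apart from protein-coding genes, 20 lay inside or across one, 13 had an exon overlapping a coding gene's exon, and 11 started head to head within 1000 bases of one. The remaining 12 are themselves protein coding there, so the name long intergenic non-coding RNA does not hold for all of them. RefSeq lists 205 members as long non-coding RNA, 11 as protein coding and does not hold the gene IDs of 4. The median transcript of a placed member had 1596.5 bases and 3 exons, and 17 had 1 exon. Chromosome 13 held more members than any other, 21 of 206 (10.2%), beside 13.4% of the placed LINC entries below the level and 1.66% of the coding genes tested.

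The levels formed a long tail with a few abundant members. In the 4 libraries the members together made up 0.296% to 0.317% of the summed FPKM of the table, and the 5 most abundant gave between 39.9% and 42.9% of the members' sum. The median member stood at 2.50 to 2.82 FPKM in a library, and the median of the members' mean levels was 2.67 against 9.16 for all genes tested. Only 3 members had a mean of 100 FPKM or more, 20 lay between 10 and 100, 30 between 5 and 10, 90 between 2 and 5, and 77 under 2. Among the 13704 other tested genes, 12.8% lay under 2 FPKM and 43.0% between 10 and 100, against 35.0% and 9.09% of the members. The plot of all members by rank shows the 5 leading entries standing clear of the rest in every library.

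**Figure D1:**
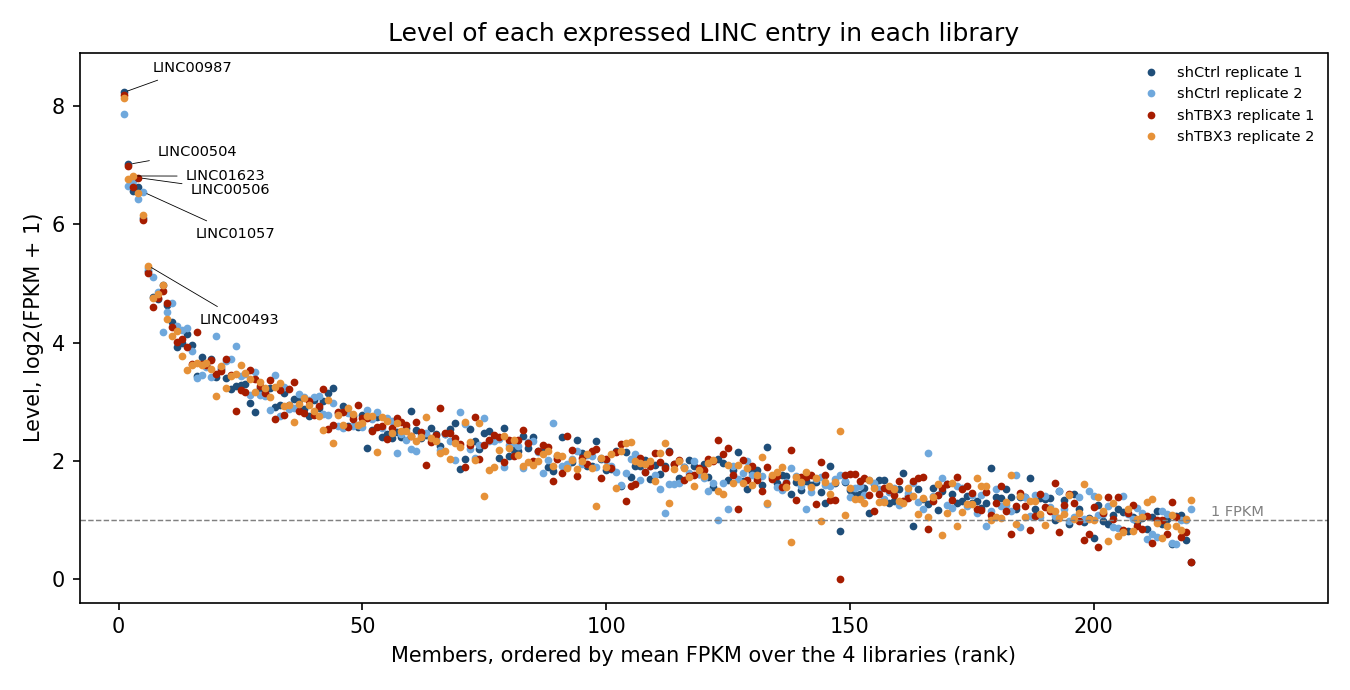
Level of each of the 220 members as log2(FPKM + 1) in the 4 libraries, ordered by mean FPKM; each point is 1 library and the dashed line marks 1 FPKM. The 5 leading members lie at 66.69 FPKM or above in every library, most others lie under 10 FPKM, and the isolated point at 0 is LINC00239 in shTBX3 replicate 1.

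LINC00987 was the most abundant member, at 299.77 and 232.53 FPKM in shCtrl, against 289.88 and 279.40 in shTBX3. Its groups overlapped, with means of 266 ± 47.5 and 285 ± 7.41 (SD, n = 2 each) and a log2 difference of 0.11 ± 0.15 (SE, limma adjusted p = 0.966). It lies on the plus strand of chromosome 12 (9392599 to 9413646) with PZP, a coding gene of the alpha-2-macroglobulin family, 31608 bases away. An exon of it overlaps PTMAP4, a processed pseudogene on the opposite strand, that is, an old reverse-transcribed copy of the mRNA of PTMA, which encodes prothymosin alpha. The 329 bases of that exon over the pseudogene match the PTMA mRNA at 92.4% identity over 344 aligned positions, with a longest exact run of 46 bases. PTMA itself stood at 1841.82 and 1526.21 FPKM in shCtrl, against 1888.81 and 1839.73 in shTBX3. In both genes shCtrl replicate 2 was the lowest library and the other 3 lay close together. The part of PTMA fragments in the level of LINC00987 was not tested.

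LINC01623, next but one in rank, showed the same arrangement with a ribosomal protein gene. Its levels were 94.15 and 106.03 FPKM in shCtrl, against 98.08 and 111.92 in shTBX3, with a log2 difference of 0.07 ± 0.13 (limma adjusted p = 0.978). It lies on the minus strand of chromosome 6 (28827402 to 28832407), 38372 bases from TRIM27, a ubiquitin ligase gene. One of its 2 exons covers 600 bases of RPL13P, a pseudogene of RPL13 on the opposite strand, with 84.7% identity to the RPL13 mRNA and a longest exact run of 43 bases. RPL13 stood at 266.82 and 276.76 in shCtrl, against 257.85 and 317.49 in shTBX3. In both genes the highest library was shTBX3 replicate 2, while the lowest was shCtrl replicate 1 for LINC01623 and shTBX3 replicate 1 for RPL13. The part of RPL13 fragments in the level of LINC01623 was not tested.

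To show how close these copies are, the first bases of each coding copy are given here as they lie in the GRCh37 genome, in the sense of the parent mRNA and therefore antisense to the LINC transcript. Capitals mark bases that differ from the parent mRNA or are absent from it, 3 of 120 in the first and 8 of 111 in the second. Parent bases that the copy lacks are neither shown nor marked, so the 111 bases of the second span 120 aligned positions. The first lies at chr12:9392808-9392927 on the minus strand, within LINC00987, and the second at chr6:28829193-28829303 on the plus strand, within LINC01623.
LINC00987 exon, PTMAP4: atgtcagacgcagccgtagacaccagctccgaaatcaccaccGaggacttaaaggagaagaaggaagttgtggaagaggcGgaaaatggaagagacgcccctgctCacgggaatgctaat
LINC01623 exon, RPL13P: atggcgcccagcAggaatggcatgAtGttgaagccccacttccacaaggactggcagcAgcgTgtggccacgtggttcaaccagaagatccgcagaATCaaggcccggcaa
The copy within LINC00987 thus differs at fewer positions over these bases than the copy within LINC01623.

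The other members of the leading group were LINC00504, LINC00506 and LINC01057. LINC00504 (chromosome 4, 14472089 to 14889793, minus strand) stood at 128.36 and 99.72 FPKM in shCtrl, against 126.14 and 108.26 in shTBX3. Of its transcript, 69.2% matched transcripts of other genes at 95% identity or more over at least 100 bases, and the matches fell in 90 different genes. LINC00506 (chromosome 3, 87138279 to 87207513, plus strand) stood at 97.93, 84.87, 109.70 and 91.44 in the same order of libraries, and no such match was found for it. LINC01057 (chromosome 1, 95079370 to 95320982, minus strand), also without a match, is now named SLC44A3-AS1 because it runs antisense across SLC44A3, a choline transporter-like gene. Its levels were 68.34, 92.66, 66.69 and 70.67, with shCtrl replicate 2 above the other 3, while SLC44A3 itself stood at 4.96 and 5.40 in shCtrl, against 2.29 and 3.97 in shTBX3 (limma adjusted p = 0.684). Limma's adjusted p was 0.924 or above for all 5 leading members.

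Ranks 6 to 10 were LINC00493, LINC01420, LINC00649, LINC00152 and LINC00923. LINC00649 (chromosome 21, 35287838 to 35350004, plus strand) stood at 25.57, 28.06, 25.87 and 27.31 FPKM and varied little between libraries. The first 246 bases of its transcript are the exact complement of a stretch of ATP5O, a subunit gene of mitochondrial ATP synthase that stood at 148.27 to 170.41 FPKM. LINC00923 (chromosome 15, 98115415 to 98418880, minus strand) stood at 23.97, 21.78, 24.51 and 20.19 and shared no such stretch. ARRDC4, an arrestin-related gene 85053 bases from it, stood at 5.82 and 4.73 in shCtrl, against 3.41 and 2.44 in shTBX3, with a log2 difference of −0.68 ± 0.19 (limma adjusted p = 0.499). The groups of LINC00923 overlapped while those of ARRDC4 did not.

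LINC00152, now named CYTOR, is a cytoplasmic RNA studied for its high level in carcinomas. It lies on the plus strand of chromosome 2 (87754300 to 87936259) and stood at 30.49 and 17.12 FPKM in shCtrl, against 28.27 and 30.27 in shTBX3. Its whole transcript matches MIR4435-2HG, a second copy of the locus, with 99.5% identity in the longest alignment, of 638 bases. The split of fragments between both entries is therefore uncertain. MIR4435-2HG stood at 18.40, 20.30, 23.72 and 18.55, and the sum of both entries at 48.89, 37.42, 51.99 and 48.82. The sum, like LINC00152 itself, was lowest in shCtrl replicate 2. The log2 difference of LINC00152 was 0.34 ± 0.26 (limma adjusted p = 0.921). LINC01123 and LINC01106 are a further near-identical pair named for their shared sequence. The longest alignment had 99.8% identity over 1071 bases from the LINC01123 transcript, and 99.4% over 1727 bases from that of LINC01106. LINC01123 stood at 14.50 and 13.56 in shCtrl, against 11.50 and 11.34 in shTBX3, LINC01106 at 4.27 and 4.47 against 5.32 and 4.66, so the groups did not overlap in either gene and their order was opposite. Limma called neither (adjusted p = 0.812 and 0.933), and the sums of the pair were 18.77, 18.03, 16.82 and 16.

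Shared sequence was more frequent among members than among the LINC entries below the level. A stretch of at least 100 bases at 95% identity or more with another gene's transcript was found in 83 of 206 placed members (40.3%) and in 90 of 314 placed entries below the level (28.7%). Where the other gene itself reached 1 FPKM the counts were 50 (24.3%) and 32 (10.2%). An exon overlapped a pseudogene in 20 members (9.71%) and in 17 entries below the level (5.41%). In 27 members the shared bases made up 50% of the transcript or more. These counts hold overlaps at the same locus, such as LINC00094 with BRD3, as well as copies elsewhere. They also hold LINC00102, LINC00106 and LINC00685, whose whole transcript matched 1 other gene entry. Y chromosome copies were not left out, so that entry may be the Y copy of the same gene. The median level was 3.64 FPKM for members that shared sequence and 2.51 for the 123 that did not. Because membership itself depended on level, these shares are given without a test.

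**Figure D2:**
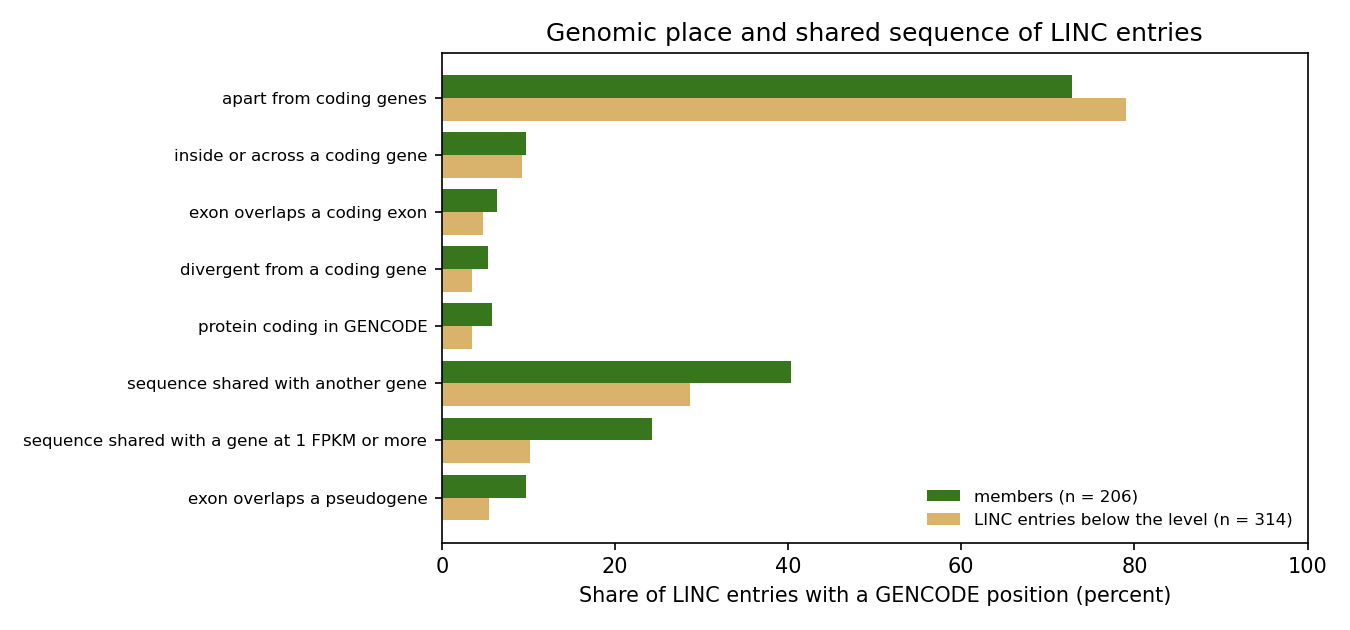
Share, in percent, of the 206 placed members (green) and of the 314 placed LINC entries below the level (tan) in each class of genomic place (upper 5 pairs of bars, which add up to 100%) and with shared sequence or a pseudogene overlap (lower 3 pairs). Shared sequence with a gene at 1 FPKM or more was found for 24.3% of members and 10.2% of the others.

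Of 8 LINC genes listed because they are reported to encode small proteins, 5 were members. LINC00493, now SMIM26, encodes a small mitochondrial membrane protein and was the steadiest of the leading entries, at 36.25 and 37.48 FPKM in shCtrl, against 35.22 and 38.50 in shTBX3 (log2 difference −0.00 ± 0.12). LINC01420, now NBDY, encodes a microprotein of the mRNA decapping machinery, and stood at 26.36 and 33.54 against 23.34 and 26.07, with both shTBX3 libraries below both shCtrl libraries (−0.26 ± 0.16, limma adjusted p = 0.880). The last 882 bases of its transcript are the complement of SPIN3, which was lower in both shTBX3 libraries as well (4.73 and 5.39 against 3.74 and 4.59). LINC00998, now SMIM30, encodes a small membrane protein (14.91, 17.55, 15.71 and 12.70). LINC00116, now MTLN, encodes mitoregulin of the inner mitochondrial membrane (5.73, 5.04, 5.53 and 5.91). LINC00467 has been described as the source of a mitochondrial micropeptide and stood at 6.06, 10.28, 9.44 and 7.93. LINC00961 was in the table at 0.23 FPKM or less, and 2 further genes of the list were not found under their LINC names. The 12 members that are protein coding in GENCODE had a median level of 5.23 FPKM, and 3 were higher and 9 lower in shTBX3 by the sign of the log2 difference, with 0 called. A negative sign was found in 9 of these 12 (75%), in 50.5% of all members and in 53.1% of all tested genes.

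Of 21 LINC genes chosen because they are studied in carcinoma or differentiation, 19 were in the table and 10 were members. LINC00673 (14.18, 18.48, 15.11 and 17.25 FPKM) and LINC00941 (8.44, 6.23, 9.30 and 7.48) followed LINC00152 in level. LINC00665 stood at 7.10, 5.96, 8.32 and 4.72, and LINC00460 at 4.21, 5.37, 4.85 and 4.52. The groups of these 4 genes overlapped. LINC00483, now the coding gene ANKRD40CL, stood at 6.16, 3.60, 4.34 and 4.37, LINC00662 at 2.76, 2.20, 3.15 and 2.88, and LINC00346 at 2.02, 1.78, 2.38 and 1.95. Of the 10, both shTBX3 libraries lay above both shCtrl libraries in LINC00662 (log2 difference 0.21 ± 0.18, limma adjusted p = 0.925) and below them in LINC00958, and the groups of the other 8 overlapped. Over all tested genes the groups lay apart in this way in 14.8% (above) and 19.7% (below). LINC00511 was near the limit at 0.95, 1.03, 0.58 and 2.03, and passed on 1 library of each group. The 9 listed genes below the level, among them LINC00261 and LINC01133, had no value above 0.58 FPKM in any library.

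The spread between replicates of a group was close to that of other genes at low levels and larger at high levels, given here without a test. Over all members the median SD within a group was 0.184 on the log2(FPKM + 1) scale, and over all tested genes 0.149. Under 2 FPKM the medians were 0.202 for members and 0.193 for other genes, and between 2 and 5 FPKM 0.174 and 0.168. Between 10 and 100 FPKM they were 0.178 and 0.136. From the estimated fragments, the median placed member rested on 37.1 fragments, whose counting error alone is 16%, and 21 of 206 rested on fewer than 10. Intervals of this kind cover counting error only.

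**Figure D3:**
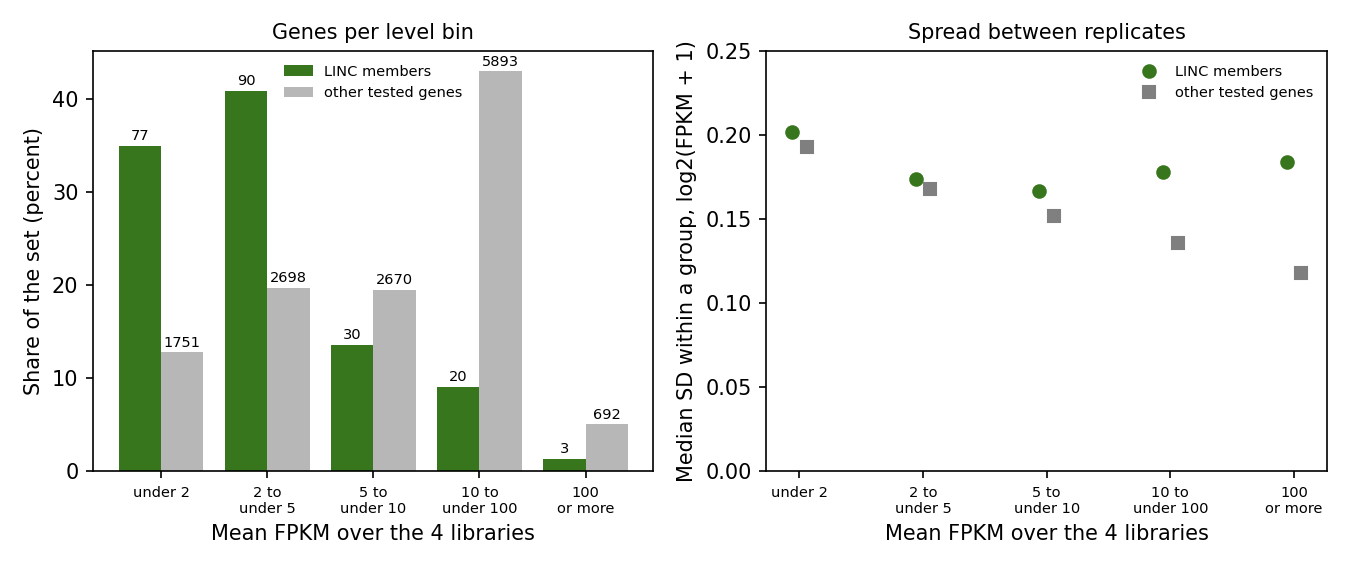
Left, share in percent of the 220 members (green) and of the 13704 other tested genes (grey) in bins of mean FPKM, with the number of genes above each bar. Right, median within-group SD of log2(FPKM + 1) over the genes of each bin; at 10 to under 100 FPKM it was 0.178 for members and 0.136 for other genes, and the highest bin holds 3 members.

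The levels of most members differed by more than 1.5 times between libraries. The highest library was less than 1.5 times the lowest for 96 members, 1.5 to 3 times for 112 and 3 times or more for 11, with a median of 1.55. LINC00239 (chromosome 14, 102196774 to 102198871) was the only member listed at 0 in a library, with 0.76 and 2.39 FPKM in shCtrl, against 0.00 and 4.64 in shTBX3, that is, about 24.7 fragments in one shTBX3 library and 0 in the other. No fold is given for it. LINC01237 stood at 0.22 and 1.28 in shCtrl, against 0.22 and 1.51 in shTBX3, about 1.0, 6.0, 1.0 and 7.0 fragments. It passed on the replicate 2 libraries of both groups and is named after its values were seen.

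No member passed the threshold in the comparison of the groups. Limma called 25 of 13924 genes over the whole table (0.18%) and 0 of the 220 members, of which 15 had an unadjusted p under 0.05. Of these, 8 members were higher in shTBX3 (3.64%, beside 2.03% of all tested genes) and 7 were lower (3.18%, beside 4.65%). Both shTBX3 libraries lay above both shCtrl libraries in 33 members (15%, beside 14.8% of all tested genes) and below them in 33 (15%, beside 19.7%). These include the 3 members that passed the level through shCtrl alone and the 3 through shTBX3 alone, whose order the level rule fixed. The same holds for 104 and 104 of all tested genes. LINC01030, which passed through shTBX3 alone, is also among the 8 higher members. The median log2 difference was −0.0011 over the members, with quartiles of −0.17 and 0.11, and −0.014 over all tested genes. A difference of more than 0.5 in either direction was found in 9 members (4.09%) and in 5.76% of all tested genes. In bulk RNA, a difference in the number of cells that make a transcript and one in the amount per cell cannot be told apart.

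**Figure D4:**
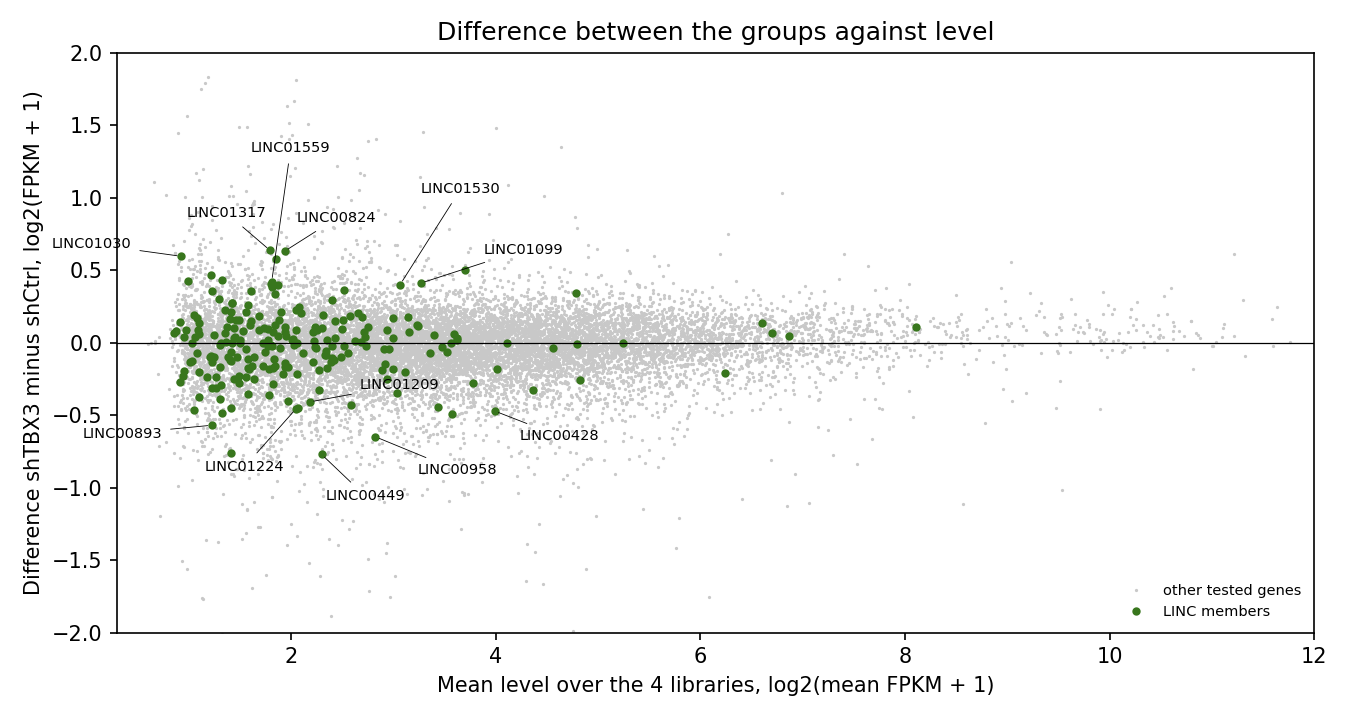
Difference between the groups (shTBX3 minus shCtrl, log2(FPKM + 1)) against mean level for the 220 members (green) and the other tested genes (grey, of which 34 lie outside the axis); the 12 named members are labelled. The members lie on both sides of 0 within the cloud of other genes, with a median of −0.0011.

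Among members higher in shTBX3, LINC00824 had the smallest p-value. It stood at 1.99 and 2.02 FPKM in shCtrl, against 3.86 and 3.46 in shTBX3, group means of 2.0 ± 0.021 and 3.66 ± 0.283 (SD, n = 2 each) and a ratio of 1.83. Its log2 difference was 0.63 ± 0.16 (SE, limma adjusted p = 0.449), and its FPKM correspond to about 9.5 and 9.9 fragments in shCtrl, against 18.5 and 16.8 in shTBX3. The gene lies on the minus strand of chromosome 8 (129417515 to 129576925), where the nearest coding gene, MYC, is 662318 bases away and stood at 106.43 and 130.64 in shCtrl, against 104.58 and 148.61 in shTBX3. LINC01030, on the same chromosome (91605032 to 91618293), stood at 0.50 and 0.52 against 1.46 and 1.12, which is 8.7 fragments or fewer in every library. It is in the set through the shTBX3 libraries alone, so its direction was fixed by the filter. The coding gene next to it, TMEM64, lay 15930 bases away at 5.85 and 5.29 against 6.67 and 7.05.

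The other 4 named members that were higher in shTBX3 had log2 differences between 0.40 and 0.64 and adjusted p-values between 0.650 and 0.710 in limma. LINC01099 (chromosome 4, 178650792 to 178829090) stood at 6.88 and 7.67 FPKM in shCtrl, against 10.59 and 9.44 in shTBX3. LINC01530 (chromosome 19, 52095701 to 52097649), whose exon overlaps one of the zinc finger gene ZNF175, stood at 6.71 and 5.74 against 8.16 and 8.91. LINC01559 (chromosome 12, 13524023 to 13540101) stood at 1.94 and 2.07 against 3.01 and 3.04. LINC01317, without a position in the annotation used, stood at 2.19 and 1.27 against 3.63 and 2.79. Its log2 difference of 0.64 was 0.39 without shCtrl replicate 2. In each of the 4 the lower shTBX3 library lay above the higher shCtrl library.

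Among members lower in shTBX3, LINC00958 had the smallest p-value. This RNA, studied in several carcinomas, stood at 8.41 and 6.89 FPKM in shCtrl, against 5.11 and 3.94 in shTBX3, with means of 7.65 ± 1.07 and 4.53 ± 0.827 (SD, n = 2 each). The log2 difference was −0.65 ± 0.18 (limma adjusted p = 0.482), on about 127.9 and 107.1 fragments in shCtrl, against 77.5 and 60.7 in shTBX3. LINC00958 lies on the minus strand of chromosome 11 (12983088 to 13011144), 16804 bases from TEAD1, a transcription factor gene of the Hippo pathway. TEAD1 stood at 22.12 and 25.19 in shCtrl, against 25.54 and 27.74 in shTBX3, so its values lay in the opposite order.

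The other 5 named members that were lower had log2 differences between −0.77 and −0.41. LINC00893, now EOLA1-DT (chromosome X, 148609130 to 148622504), stood at 1.79 and 1.80 FPKM in shCtrl, against 0.74 and 1.04 in shTBX3 (limma adjusted p = 0.650), and 65.3% of its transcript matches other genes. LINC00428 (chromosome 13, 43416550 to 43417023), a short transcript of 227 bases, stood at 16.78 and 18.05 against 14.24 and 10.57. LINC01224 (chromosome 19, 23581899 to 23598877) stood at 4.11 and 3.47 against 2.33 and 2.65, and its neighbour ZNF91, a zinc finger repressor of retrotransposons 3626 bases away, at 6.16 and 5.35 against 3.89 and 3.69 (log2 difference −0.49 ± 0.15, limma adjusted p = 0.565). LINC01209 (chromosome 3, 176531943 to 176534789) stood at 4.31 and 4.05 against 3.0 and 2.81. LINC00449 (chromosome 13, 100151981 to 100153306) stood at 4.57 and 5.64 against 3.82 and 1.64, and 195 bases of it are the exact complement of TM9SF2, which stood at 51.96 to 57.70 in the 4 libraries. Leaving out shTBX3 replicate 2 moved its log2 difference from −0.77 to −0.34, and leaving out replicate 1 to −1.20, while that of LINC00428 was −0.27 without shTBX3 replicate 2. The plot of these 12 members by library shows the 2 groups apart in each panel, as the rule that named them required.

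**Figure D5:**
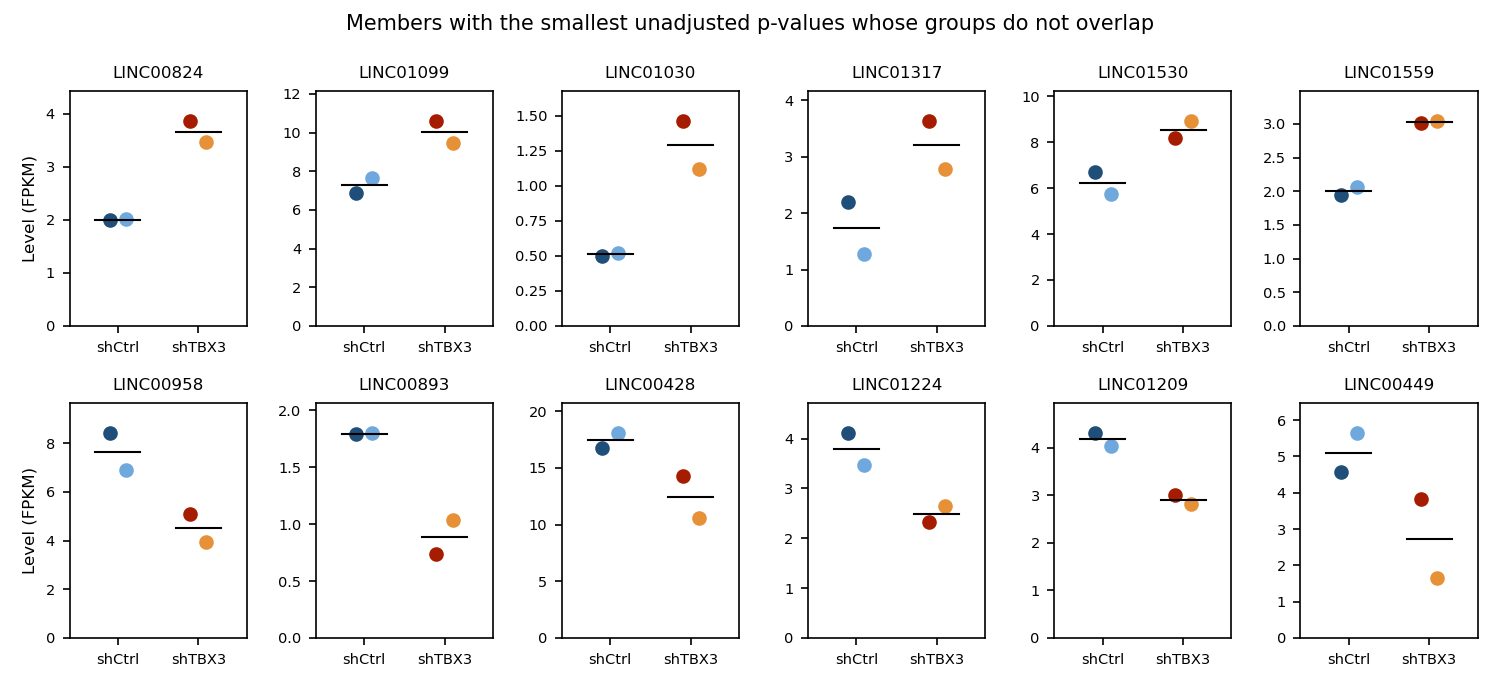
Level in FPKM of the 12 members with the smallest unadjusted limma p among those whose groups do not overlap, 6 higher (upper row) and 6 lower (lower row) in shTBX3; points are libraries (dark, replicate 1; light, replicate 2) and lines are group means, with axes from 0. LINC00824 lies at 1.99 and 2.02 in shCtrl, against 3.86 and 3.46 in shTBX3, and no member shown passed the adjusted threshold.

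The nearest coding gene was in the table for 171 members. It had the higher mean level in 103 of these pairs (60.2%), with a median of 5.70 FPKM against 2.67 for the members, and in 32 pairs it lay below the level asked of a tested gene. Of the placed members, 37 overlapped or touched the nearest coding gene, 90 lay within 10000 bases of one and 36 lay more than 100000 bases away. The median distance was 14422 bases for members and 26639 for LINC entries below the level. For 139 members the neighbour was tested. The log2 differences of member and neighbour had the same sign in 73 of the 139 pairs (52.5%), and Pearson's r across the pairs was 0.17 (Spearman's rho 0.14). In the 62 pairs within 10000 bases r was 0.29 (rho 0.22), and in the 77 farther pairs 0.09 (rho 0.08). These values are descriptions, since all pairs come from the same 4 libraries, some overlap in sequence, and 139 members share 130 neighbours. LINC00543, named for its neighbour, lies on chromosome 13 and 5548 bases from CDX2, the intestinal transcription factor gene that stood at 116.78 to 147.75 FPKM. LINC00543 stood at 1.64 and 1.34 in shCtrl, against 1.96 and 1.42 in shTBX3.

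Promoter sequences of members were searched for the T-box core letters, since TBX3 binds DNA through a T-box domain. RefSeq (GRCh38.p14) gave a sequence from 250 bases before to 50 after the start for 148 of the 220 members. The letters GGTGTGA on either strand were present in 5 of them (3.4%). The share was 3.4% of all 27305 promoters of the RefSeq set, which is not limited to genes of the expression table. It was 3.0% of those of tested genes and 2.6% of those of LINC entries below the level. The GC box letters GGGCGG, on either strand, were present in 38.5% of member promoters and 69.0% of those of tested genes, and TATAAA in 12.2% and 5.8%. The letters CCAAT were found in 43.9% and 37.1%. The median GC content was 54.5% for member promoters, 65.0% for tested genes and 49.3% for LINC entries below the level. A match is a description of letters and not a bound site.

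The 5 windows that hold these letters are printed 5′ to 3′ on the strand of the gene, with them in capitals, as GGTGTGA or as its complement TCACACC, to set the sequence beside the levels. The promoters are those of LINC00511 (chr17:72640690-72640720, minus strand), LINC00674 (chr17:68101445-68101475, plus strand), LINC00857 (chr10:80207544-80207574, plus strand), LINC01492 (chr9:103325214-103325244, minus strand) and LINC01534 (chr19:36687665-36687695, minus strand), all on GRCh38.p14.
LINC00511: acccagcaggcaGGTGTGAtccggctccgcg
LINC00674: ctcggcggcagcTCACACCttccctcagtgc
LINC00857: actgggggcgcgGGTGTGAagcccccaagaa
LINC01492: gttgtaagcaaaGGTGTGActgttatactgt
LINC01534: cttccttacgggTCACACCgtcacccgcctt
Limma called none of the 5 genes, with adjusted p-values from 0.970 to 0.998. LINC00674 stood at 11.27 and 11.05 FPKM in shCtrl, against 11.33 and 11.55 in shTBX3, a log2 difference of 0.03 ± 0.13. LINC00857 stood at 2.76 and 3.23 against 3.47 and 2.66, and LINC01492 at 3.50 and 3.76 against 4.08 and 3.30. LINC01534, which starts head to head with ZNF567, stood at 1.37 and 1.11 against 0.45 and 1.61, and LINC00511 at the values given above.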

How the data were processed

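RNA of 4 K1 libraries (2 shCtrl, 2 shTBX3) was sequenced on the BGISEQ-500. The deposited table gives FPKM per gene, computed by the authors. HISAT, Bowtie2, RSEM and hg19 are named, per the submitters' processing notes, without versions or roles; strandedness, filters and the annotation release are not given in the sources used. RSEM shares fragments among similar transcripts by estimate, which bears on members with copies.

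Genes at 1 FPKM or more in 2 or more libraries (13924) were put on the log2(FPKM + 1) scale and fitted by limma (version 3.58.1, R 4.3.3, eBayes with an intensity trend, 2 residual and 4.11 prior degrees of freedom), two-sided, with Benjamini-Hochberg adjustment over all of them and a threshold of 0.05. Log2 differences on this scale understate those of low genes, while ratios use mean FPKM. The fit was tested on simulated data. No gene set was tested.

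The members and gene lists were chosen with earlier results of these data known. Genes were named as the 10 highest by mean level, the 6 smallest p-values per direction with groups that do not overlap, the members of 2 lists (small proteins, studied genes), 2 entries on each side of the level and any member at 0.

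Depth was read from the FPKM steps of microRNA genes: 83.0% to 86.4% of low values were whole within 0.05 fragments. Depth and a length offset of −37 bases were chosen to make this share highest. Values spread evenly would give 10% at a fixed choice, and the share for the best choice was not worked out. A member's fragments use 1 annotated transcript length with this offset. Transcripts were compared with BLAST+ 2.17.0, and tables were made with Python 3.11.15, pandas 2.3.3 and pysam 0.24.0. Of 220 members 206 matched GENCODE, 204 by gene ID and 2 by symbol.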

Additional observations from a re-analysis of the deposited data

How the results depend on the processing

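The count of 0 members called in limma held under all 13 alternatives, and the smallest adjusted p of any member ran from 0.0969 to 0.651. The members' median log2 difference lay between −0.037 and 0.029. The 12 named members were chosen for groups that do not overlap, so their direction says nothing of stability. The count of 25 genes called over the whole table moved to 7 with a pseudocount of 0.1, to 0 without a filter on low values (1249 at an unadjusted p under 0.05), to 12 with 1 FPKM asked of all 4 libraries, and from 12 (without shTBX3 replicate 1) to 55 (without shCtrl replicate 1) as single libraries were left out. With the replicate number as a block it was 132 (34 higher, 98 lower), with 0 members among them and LINC00958 nearest (adjusted p = 0.0969). The replicate numbers are shared by name only: deviations of libraries with the same number correlated at 0.26 over all genes and at 0.193 over members, with only 2 pairs. Without a library the remaining one of its group is assumed to vary like the other group. Depth limits the low members: 85 of 206 rested on fewer than 30 fragments.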

Other observations

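Long non-coding RNAs with established names, which lie outside the LINC series, were read from the same fit as a list of 43 genes, of which 42 were in the table and 36 were tested. Their median level was 23.4 FPKM, against 2.67 for the LINC members. Limma called 0 of the 36, of which 18 were higher and 18 lower in shTBX3, with a median log2 difference of −0.0018. H19, an imprinted RNA of the growth-regulating cluster on chromosome 11, stood at 402.71 and 640.52 FPKM in shCtrl, against 202.33 and 270.43 in shTBX3 (log2 difference −1.12 ± 0.25, adjusted p = 0.335). HOTAIRM1, transcribed from the HOXA cluster, stood at 18.11 and 13.75 against 8.92 and 10.74 (adjusted p = 0.499). Among hosts of small nucleolar RNAs, SNHG5 stood at 26.17 and 29.71 against 42.00 and 33.09 (adjusted p = 0.721), and ZFAS1 at 154.89 and 151.28 against 114.28 and 134.45 (adjusted p = 0.774). NEAT1, the scaffold of paraspeckles, followed the replicate number at 67.25 and 109.08 in shCtrl, against 65.01 and 103.54 in shTBX3. MALAT1 stood at 153.78, 138.24, 158.53 and 129.02. PTCSC3, named for a papillary thyroid carcinoma susceptibility locus, stood at 12.27, 10.90, 13.05 and 11.19. The genes named here were picked after their values were seen.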
